A study of Mus musculus with 6 samples.

Results

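A group of 10 genes of the basement membrane, the sheet of matrix under epithelia, around vessels and along the inner surface of the retina, was followed in retinal RNA of newborn mice. They encode laminin chains (Lama1, Lama4, Lamb1, Lamb2 and Lamc1), the main collagen IV chains (Col4a1 and Col4a2), the nidogens (Nid1 and Nid2) and perlecan (Hspg2). They were chosen by name, and all 10 were found among the 39179 gene rows of every count file and passed the filter on low counts. Bulk RNA-seq covered 6 retinal libraries at postnatal day 0.5, from mice of a mixed, primarily CD-1 background. The 3 controls carried the floxed genotype Lhx2 lox/lox without Cre, although the series text calls them wild type. The 3 conditional knockouts (cKO) had the genotype Lhx2 lox/lox with Pdgfrα-Cre, a recombinase driven by a Pdgfra promoter, so that all 6 animals shared the floxed alleles and the groups differed in Cre. The gene Lhx2 encodes a homeodomain protein active in retinal progenitors and Müller glia, and the series asks what it does in the formation of those glia.

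Laminins are trimers of an alpha, a beta and a gamma chain that polymerise into the first network of a basement membrane. Collagen IV forms a separate, covalently linked network, nidogens bridge both, and perlecan is a heparan sulfate proteoglycan that ties them to growth factors. In the eye such sheets form the inner limiting membrane, on which Müller glial endfeet and ganglion cell axons rest, the lens capsule, Bruch's membrane and the sleeve of every vessel. The lens, the ciliary body and vessels are known sources of inner limiting membrane proteins in the embryo, beside the retina itself.

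Col4a1 and Col4a2 lie head to head on chromosome 8 (GRCm38), where the RefSeq start sites, at 11312826 for Col4a1 on the minus strand and 11312805 for Col4a2 on the plus strand, are 21 bases apart. Their promoter windows, from 250 bases before to 50 after the start (RefSeq, GRCm38.p6), overlap by 78 bases and are shown because the pair shares this stretch. The Nid1 window is shown because Nid1 had the largest difference of the group. Capitals mark CCAAT and GGGCGG, read on both strands.
Col4a1 promoter, chr8:11312777-11313076 (minus strand): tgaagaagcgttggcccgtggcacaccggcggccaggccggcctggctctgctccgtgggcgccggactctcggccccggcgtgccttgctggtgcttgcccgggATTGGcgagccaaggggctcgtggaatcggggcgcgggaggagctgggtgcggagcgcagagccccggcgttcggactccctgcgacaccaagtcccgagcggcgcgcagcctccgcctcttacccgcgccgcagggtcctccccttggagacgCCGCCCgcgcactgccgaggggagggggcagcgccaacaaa
Col4a2 promoter, chr8:11312555-11312854 (plus strand): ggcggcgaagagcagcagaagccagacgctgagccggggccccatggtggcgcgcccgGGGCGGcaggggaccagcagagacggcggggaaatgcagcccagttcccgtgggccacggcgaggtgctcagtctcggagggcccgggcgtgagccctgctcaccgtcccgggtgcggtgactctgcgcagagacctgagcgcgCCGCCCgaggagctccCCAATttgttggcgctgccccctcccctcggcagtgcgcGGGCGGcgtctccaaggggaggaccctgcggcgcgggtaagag
Nid1 promoter, chr13:13437352-13437651 (plus strand): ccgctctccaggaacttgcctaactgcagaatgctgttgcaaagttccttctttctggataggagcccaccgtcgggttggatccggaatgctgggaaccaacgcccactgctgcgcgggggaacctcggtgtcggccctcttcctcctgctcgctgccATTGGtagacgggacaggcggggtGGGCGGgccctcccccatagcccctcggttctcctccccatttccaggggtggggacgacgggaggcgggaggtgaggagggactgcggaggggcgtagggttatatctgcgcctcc
Windows of 6 of the 10 genes were in the table (Hspg2, Lamb1 and Lamb2 besides those printed). The homeodomain core TAATTA, which is its own reverse complement, was in 0 of these 6 windows and in 5.29% of the 32851 mouse windows of that length. CCAAT was found 1 time each in the windows of Col4a1, Col4a2, Lamb1 and Nid1, against 37.4% of all windows with at least 1. GGGCGG, the core of a GC box, was found 5 times in the Hspg2 window, 3 in Col4a2, 2 in Lamb1 and 1 each in Col4a1 and Nid1, against 35.7% of all windows, and 1 of these sites was common to Col4a1 and Col4a2. GC content was 74.0% for Col4a1 and 73.7% for Col4a2, against a median of 52.7%. The Lamb2 window held none of the 3 motifs and had 44.0% GC. A match is a stretch of letters, not a measured site.

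Read depth was 31483170 to 66947478 reads counted on genes per library. The libraries fell into 2 sets with no counterpart in the labels, told apart by the size of the row of reads that HTSeq could not assign to 1 gene. That row held 3.13 to 3.20% of all counts in set A (control 2, cKO 1 and cKO 2) and 2.63 to 2.69% in set B (control 3, control 4 and cKO 3), and 63.7% of the 16691 tested genes differed between the sets (edgeR, adjusted p under 0.05). Tests therefore had library set as a term. Levels are given as CPM, counts scaled to library size. Y-linked transcripts (4 genes) summed to 215 CPM in control 2 and 375 CPM in control 4, with no other library over 0.20 CPM, so that sex also differed between the groups. Lhx2 itself read 398, 266 and 258 CPM in controls 2, 3 and 4, against 252, 287 and 224 CPM in cKO 1, 2 and 3 (log2 fold change -0.40, SE 0.10, adjusted p = 0.0338, edgeR). The exons that Cre removes were not analysed here, and gene-level counts include all exons. Pdgfra, whose promoter drives Cre, differed by -0.01 (adjusted p = 0.968, edgeR). Retina markers were abundant in every library, with Pax6 between 782 and 1548 CPM.

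Transcripts of both main collagen IV chains and of nidogen-1 were more abundant in the cKO retinas, while differences of the abundant laminin chains did not pass the test. Of the 10 genes 4 rose (Col4a1, Col4a2, Nid1 and Lama4), 0 fell and 6 did not pass in edgeR's quasi-likelihood test, where 6.36% of all tested genes rose and 5.63% fell. At an unadjusted p under 0.05 the same fit gave 6 higher and 2 lower, against 13.3% and 13.0% of all tested genes. DESeq2 called 5 higher and 2 lower (7.21% of all genes higher and 1672 of 16691 lower), and limma-voom 4 and 0 (5.82% and 5.45%). The median log2 fold change was 0.79, against 0.00 over all tested genes. In bulk retina, fewer or more cells of a type and less or more RNA per cell cannot be told apart. All cKO libraries stood above all controls for 4 of the 10 (Col4a1, Col4a2, Nid1 and Nid2), as for 8.38% of tested genes, and all stood below for Lama1, as for 5.54%. With genotype alone in the model 0 of the 10 passed, and 0.216% of all genes were called higher. At an unadjusted p under 0.05 that model gave 4 of the 10 higher, against 4.98% of all genes. A model that also held sex called Col4a1 (1.53, adjusted p = 0.0455) and Nid1 (2.95, 0.0117) higher, where 1.04% of all genes were. In it the Col4a2 difference did not pass (adjusted p = 0.0525, edgeR) although, at 1.40, it was larger than the 1.17 without sex.

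**Figure D1:**
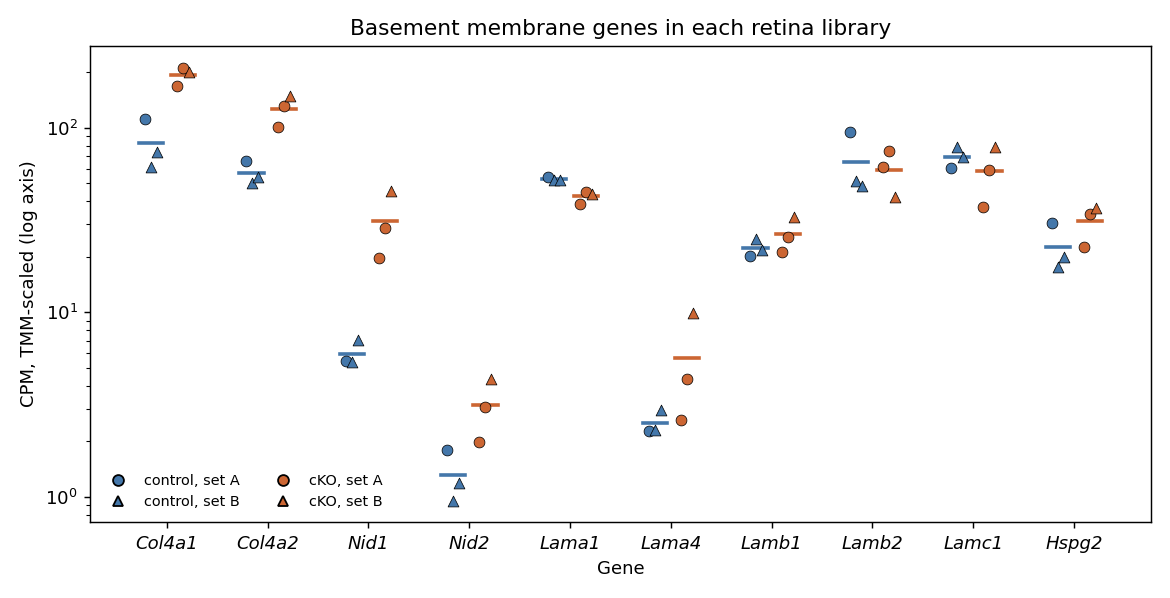
CPM scaled by TMM in each library, on a log axis, for the 10 genes. Circles are set A and triangles set B, blue controls and orange cKO, and bars are group means. Col4a1, Col4a2, Nid1 and Nid2 show no overlap between the groups, with cKO higher, and Lama1 none with cKO lower.

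Col4a1 encodes the alpha1 chain of collagen IV and lies on GRCm38 chromosome 8, 11198423 to 11312826, minus strand. It read 111, 61.2 and 73.5 CPM in controls 2, 3 and 4, against 168, 211 and 201 CPM in cKO 1, 2 and 3. Every cKO library lay above the highest control, which was the set A control. The log2 rise of Col4a1 was 1.17 (SE 0.17, adjusted p = 0.00478, edgeR), a fold of 2.25, from 82.1 ± 26.2 to 193 ± 22.7 CPM (SD, n = 3). Its partner Col4a2 (chromosome 8, 11312805 to 11449287, plus strand) read 65.7, 49.9 and 53.8 CPM in control libraries, against 101, 131 and 148 CPM in the cKO libraries. The groups again did not overlap, and the rise of 1.17 (SE 0.16, adjusted p = 0.00312, edgeR) was 2.24-fold. Both chains enter the common collagen IV trimer, which holds alpha1 and alpha2 chains. Without cKO 3 the Col4a1 difference was 0.79 (adjusted p = 0.0581, edgeR) and that of Col4a2 0.85 (adjusted p = 0.0468). Col4a1 thus lost its call in that fit, which called 176 of all genes higher, against 1062 with every library.

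Nid1, which encodes nidogen-1 (chromosome 13, 13437551 to 13512269, plus strand), showed the largest difference of the group. It read 5.44, 5.35 and 7.09 CPM in controls 2, 3 and 4, against 19.6, 28.6 and 45.1 CPM in cKO 1, 2 and 3. The lowest cKO library was above the highest control by a wide margin. The log2 rise of Nid1 was 2.51 (SE 0.21, adjusted p = 0.000324, edgeR), a fold of 5.71. Taken alone, set A gave 2.15 and set B 2.86. It passed in 14 of the 15 other settings and missed with genotype alone (adjusted p = 0.0899, edgeR). Nid2 (chromosome 14, 19751265 to 19811787, plus strand), the paralog with a similar linking role, was far lower, with 1.79, 0.957 and 1.19 CPM in control libraries, against 1.98, 3.07 and 4.36 CPM in the cKO libraries. The groups did not overlap but nearly touched between control 2 and cKO 1. The Nid2 difference of 1.23 (SE 0.36, adjusted p = 0.0593, edgeR) did not pass, and 8.45% of its exon bases are shared with Rtraf on the opposite strand. Whether counting used strand is not stated. Without strand, HTSeq could not assign reads in the shared bases to 1 gene, so such reads may be missing from the Nid2 count.

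The laminin alpha chains Lama1 and Lama4 lay on opposite sides of 0. Lama1, the alpha chain of laminin-111 in early epithelial sheets (chromosome 17, 67697259 to 67822647, plus strand), read 54.0, 51.9 and 51.9 CPM in control libraries, against 38.6, 44.9 and 43.8 CPM in the cKO libraries. All 3 cKO values were below all 3 controls. The difference of -0.31 (SE 0.09, adjusted p = 0.0609, edgeR) missed the threshold, and was past it with RLE scaling (-0.35, adjusted p = 0.0380, edgeR). Lama4, the alpha chain typical of vessel walls (chromosome 10, 38965515 to 39110188, plus strand), read 2.27, 2.30 and 2.95 CPM in control libraries, against 2.62, 4.36 and 9.97 CPM in cKO 1, 2 and 3. The groups overlapped, since cKO 1 lay below control 4, and cKO 3 was the highest. Lama4 rose by 1.29 (SE 0.32, adjusted p = 0.0338, edgeR), but did not pass when cKO 3 was left out (log2 difference 0.65, adjusted p = 0.461, edgeR), a smaller difference. It also missed without control 3 (1.09, adjusted p = 0.104), control 4 (1.23, 0.0891) or cKO 2 (1.24, 0.0715), at differences close to that over all 6 libraries, and in the model with sex, at a larger one (1.84, 0.127).

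The beta and gamma chains showed small differences, none past the threshold. Lamb2, the beta2 chain of mature retinal laminins (chromosome 9, 108479736 to 108490530, plus strand), read 95.3, 51.4 and 48.5 CPM in controls 2, 3 and 4, against 61.0, 74.8 and 41.9 CPM in cKO 1, 2 and 3. Each cKO value lay below the controls of its own set, while the groups as a whole overlapped. The difference of -0.37 (SE 0.11, adjusted p = 0.0537, edgeR) missed the threshold and passed it with RLE scaling (-0.41, adjusted p = 0.0350). Lamb1, the beta1 chain (chromosome 12, 31265234 to 31329644, plus strand), read 20.2, 25.1 and 21.8 CPM in control libraries, against 21.2, 25.6 and 32.7 CPM in the cKO libraries, with a difference of 0.35 (SE 0.12, adjusted p = 0.110, edgeR). Lamc1, the gamma1 chain of most laminins (chromosome 1, 153218922 to 153332786, minus strand), read 60.4, 78.8 and 69.0 CPM in control libraries, against 36.9, 59.0 and 79.0 CPM in the cKO libraries. Its groups overlapped widely, at -0.12 (SE 0.18, adjusted p = 0.728, edgeR), an SE larger than the difference itself.

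Hspg2, which encodes perlecan (chromosome 4, 137468769 to 137570630, plus strand), read 30.5, 17.6 and 19.9 CPM in control libraries, against 22.7, 34.1 and 36.6 CPM in the cKO libraries. Control 2 lay between the cKO libraries of its own set. The difference of 0.42 (SE 0.23, adjusted p = 0.289, edgeR) did not pass, and the sets taken alone gave -0.10 (A) and 0.97 (B). The change of the genotype difference between sets was 1.07 for Hspg2 (SE 0.32, unadjusted p = 0.00869, adjusted p = 0.954, edgeR interaction term). This term passed after adjustment for 0 of the 10 genes and for 0.0240% of all tested genes (edgeR), and at an unadjusted p under 0.05 for 5 of the 10 and 4.22% of all. Without a filter on low counts the Hspg2 term had an adjusted p of 0.0214 (edgeR). Genotype p-values also shrank without the filter. For Nid1 the adjusted p was 1.33e-63, against 0.000324 with it, at nearly the same difference (2.48 and 2.51, edgeR). The p-values without a filter are thus not on the scale of the main fit.

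**Figure D2:**
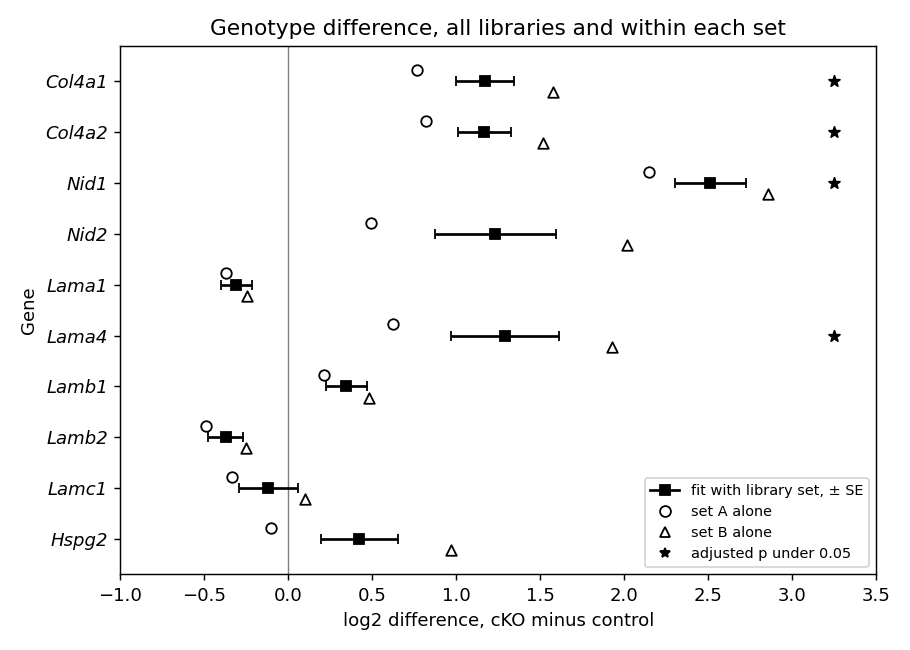
Log2 difference of cKO minus control for each gene. Squares with bars are the edgeR fit with library set ± SE, open circles and triangles the log2 ratio of mean CPM within set A and set B, and stars mark adjusted p under 0.05. Nid1 lies farthest to the right at 2.51, and the set B value is above the set A value for every gene.

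The genotype difference lay in the same direction in both sets for all of the 10 genes but Hspg2 and Lamc1. The cKO libraries were above the controls of the same set, in both sets, for 6 of the 10, as for 22.9% of tested genes, and below for 2, as for 23.8%. For each of the 10 the value was more positive in set B, which has cKO 3 as its only cKO library, than in set A, which has control 2 as its only control. The shares of all tested genes that were more positive in set B, or kept their direction in both sets, were not counted. Neither trait is therefore known to be particular to these 10 genes. Col4a1 was 0.77 higher on the log2 scale in set A and 1.58 in set B, and Nid2 0.49 and 2.02. The sets themselves moved some of these genes, with Lama4, Lamb1, Lamc1 and Nid1 higher and Lamb2 lower in set B (edgeR, adjusted p under 0.05), where 32.5% of all genes were higher and 31.2% lower. Lama4 showed the largest set difference of the 10, at 0.91 (SE 0.32, adjusted p = 0.0329, edgeR), and Lamb2 the one with the smallest p, at -0.82 (SE 0.11, adjusted p = 0.000153, edgeR).

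Levels of different genes were compared per kilobase of exon, as RPKM (CPM divided by the kilobases of merged exons). Collagen IV led in every library, with the alpha1 to alpha6 chains summing to 33.5, 21.0 and 22.2 RPKM in controls 2, 3 and 4 and 48.5, 61.4 and 55.9 RPKM in cKO 1, 2 and 3. Laminin gamma chains summed to 8.45 to 10.2 RPKM in controls and 5.15 to 10.2 RPKM in cKO retinas. The level of collagen IV over laminin gamma was 2.06 to 3.96 in controls and 5.49 to 9.41 in cKO libraries, with no overlap. Nidogens stood at 0.0937 to 0.138 of laminin gamma in controls and at 0.589 to 0.721 in cKO libraries. Alpha chains over gamma chains gave 0.676 to 0.857 in controls and 0.744 to 1.08 in cKO, which overlap. The proportion of collagen IV and nidogen transcripts to laminin transcripts differed between the groups in every library, while that among laminin classes did not separate them.

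**Figure D3:**
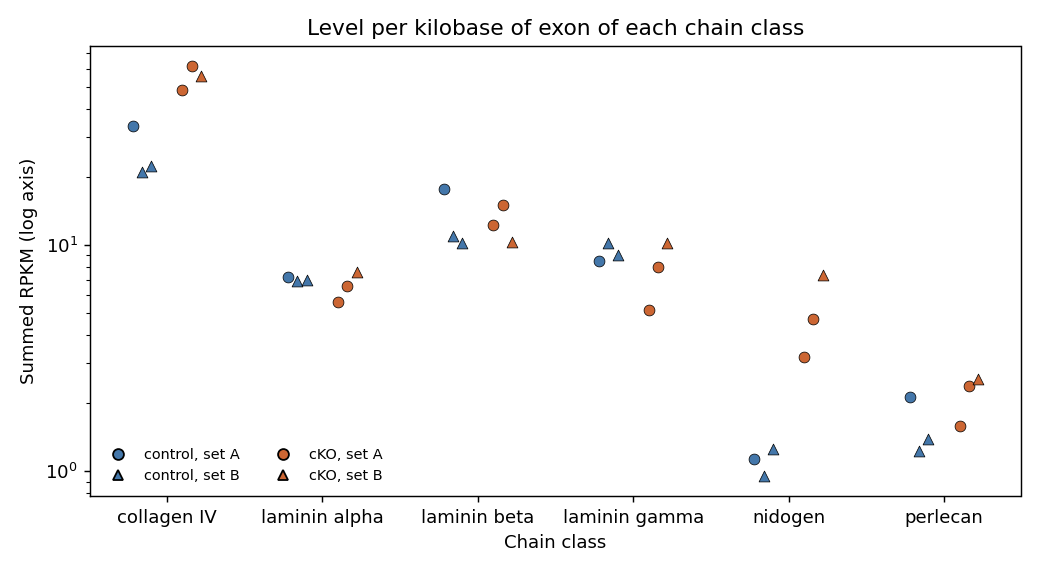
Summed RPKM of each chain class in each library, on a log axis, with colours for genotype and symbols for set. Collagen IV (48.5 to 61.4 RPKM in cKO) and nidogen (3.21 to 7.34 RPKM in cKO) lie above all controls, and the laminin classes overlap.

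Within the classes, Lama1 made up 77.0 to 77.8% of alpha chain RPKM in controls and 59.7 to 71.5% in cKO libraries. The rest was shared by Lama5, the widely used alpha5 chain, Lama2, Lama3 and Lama4. Lamb2 was the leading beta chain, at 76.9 to 88.4% in controls and 66.8 to 82.1% in cKO libraries, and Lamb2 exceeded Lamb1 per kilobase by 3.34 to 7.69 times in controls and 2.09 to 4.76 times in cKO. Lamc1 was 86.4 to 93.4% of gamma chains in controls and 86.7 to 93.8% in cKO. Nid1 made up 69.4 to 81.6% of nidogen RPKM in controls and 87.4 to 88.5% in cKO libraries, with no overlap. Col4a1 over Col4a2 was 1.09 to 1.504 in controls and 1.20 to 1.47 in cKO libraries, and this ratio did not separate the groups.

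Likeness between genes was measured as the root mean square difference of centred log2 CPM over the 6 libraries, among genes with a mean of at least 5 CPM. Col4a2 was at place 7 of 11516 genes from Col4a1 (0.18), and Col4a1 at place 5 from Col4a2. The 3 genes nearest to Col4a1 were Apcdd1 (0.089), Clmn (0.11) and Sfrp1 (0.12). Nid2 was nearest to Col4a2 (0.22), Lama2 (0.22) and Sfrp1 (0.24), with Col4a1 at place 5 (0.26). Lama1 was nearest to Btg2 (0.036), Nsmce2 (0.042) and Oxct1 (0.042), and Lamb2 to Rbm14 (0.032), Nup210 (0.040) and Ulk4 (0.045). Col4a1 was at place 10631 from Lama1 and at 8988 from Lamb2. In the other direction, Lama1 was at place 7055 from Col4a1 and Lamb2 at 5444.

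The remaining laminin and collagen IV chains were a mixed group. Of 10 tested genes 3 rose, 0 fell and 7 did not pass, where 6.36% of all tested genes rose and 5.63% fell. The median was 0.13, against 0.00 over all genes. At an unadjusted p under 0.05 there were 4 higher and 2 lower, where all genes gave 13.3% and 13.0%. Lama2, the alpha2 chain of muscle and vessel laminins, read 3.39, 2.75 and 2.91 CPM in control libraries, against 5.35, 8.11 and 13.2 CPM in cKO libraries, a rise of 1.61 (SE 0.28, adjusted p = 0.00908, edgeR). Col4a6, which pairs with Col4a5 in some epithelial sheets, rose by 0.87 (SE 0.15, adjusted p = 0.00746, edgeR). Lamb3, a chain of skin laminin, rose from 0.0722 to 0.716 CPM, from 4, 1 and 3 reads in the controls. Col4a4 was at 1.33 and 0.427 CPM (difference -1.38, SE 0.46, adjusted p = 0.0883, edgeR). Without cKO 3 0 of these 10 passed, in a fit that called 176 higher and 134 lower of 17182 genes.

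Of 18 other basement membrane components 6 rose and 1 fell, with a median of 0.34. These are 33.3% and 5.56%, against 6.36% and 5.63% of all tested genes. Sparc, a collagen IV-binding glycoprotein, had the smallest p, with 183, 147 and 154 CPM in control libraries, against 420, 404 and 377 CPM in cKO libraries. These values did not overlap and differed little within a group, and the log2 rise of Sparc was 1.25 (SE 0.08, adjusted p = 5.14e-05, edgeR). Smoc2, of the same protein family, read 0.568, 1.14 and 0.695 CPM in control libraries, against 6.46, 6.68 and 4.70 CPM in cKO libraries (SE of the log2 difference 0.33, adjusted p = 0.00143, edgeR). Sparcl1 rose by 0.99 (SE 0.13), and Col15a1, a collagen of vessel and nerve sheaths, by 1.54 (SE 0.30), with 18.6 CPM in cKO 3 against 3.21 and 4.52 CPM in cKO 1 and 2. Outside the naming rule, Fras1 (0.63) and Vwa1 (1.02) rose and Frem1 fell by 0.92, named after their values were seen.

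Of 17 receptor genes 3 rose and 1 fell (17.6% and 5.88%, median 0.09), where 6.36% of all tested genes rose and 5.63% fell. The share that fell was thus near that of all genes. Rises were seen for Ddr2, a collagen receptor kinase (2.10, SE 0.43), the laminin-binding integrin alpha3 gene Itga3 (0.45, SE 0.10) and Itgb8 (0.44, SE 0.11). Itgb5 fell by 0.54 (SE 0.09). Of 12 genes that glycosylate dystroglycan, a laminin receptor of glial endfeet, 0 passed in edgeR, DESeq2 or limma-voom (median -0.03). At an unadjusted p under 0.05 the list had 0, where all genes gave 13.3% higher and 13.0% lower (edgeR). The smallest p in that list belonged to B3galnt2 (-0.29, SE 0.13, adjusted p = 0.199, edgeR), before Ispd (-0.27), Pomt1 (-0.17) and Pomgnt2 (0.26). Of 17 tested collagen folding, crosslinking and export genes 1 rose, the lysyl oxidase family gene Loxl1 (1.65, SE 0.32, adjusted p = 0.0128, edgeR), and the median was 0.00. That is 5.88% of the list, near the 6.36% of all tested genes. Peroxidasin (Pxdn), which crosslinks collagen IV, was at -0.27 (SE 0.08, adjusted p = 0.0712, edgeR), the hydroxylase genes P3h2 and P3h1 at 1.39 (adjusted p = 0.0568) and 0.25 (adjusted p = 0.254).

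Among 13 proteases and inhibitors 2 rose and 2 fell (15.4% each, median 0.20), where 6.36% of all tested genes rose and 5.63% fell. Timp3, a metalloprotease inhibitor held in matrix, rose by 0.97 (SE 0.22) and the cathepsin gene Ctsb by 0.27 (SE 0.07), while Mmp2, the gelatinase that cleaves collagen IV, fell by 0.70 (SE 0.17) and Adamts1 by 0.60 (SE 0.16). In the 19 genes of interstitial matrix 0 rose and 4 fell (median -0.10), with 2 higher and 6 lower at an unadjusted p under 0.05 (13.3% and 13.0% of all genes). DESeq2 called 1 higher and 4 lower in this list (7.21% of all genes higher and 1672 of 16691 lower) and limma-voom 0 and 4 (5.82% and 5.45%). Col2a1, a fibrillar collagen of the vitreous, fell from 358 ± 86.2 to 188 ± 42.1 CPM (SD, n = 3), a log2 difference of -1.10 (SE 0.10, adjusted p = 0.000464, edgeR), and Col9a1, which coats those fibrils, by 1.05 (SE 0.11). Fbln2 and Fbln1, genes of fibulins, fell by 0.78 and 0.73. The counts of these lists changed when single libraries were left out, as did those over all genes. Over the 7 lists, with 10, 18, 17, 12, 17, 13 and 19 tested genes, 15 rose and 8 fell. Of all 16691 tested genes 1062 rose and 939 fell (6.36% and 5.63%). Without cKO 3, when only set A held both genotypes, the lists gave 2 and 2, and all 17182 tested genes 176 and 134. Without control 3 they gave 8 and 4, and all 17214 tested genes 545 and 452. There were 23 rises without cKO 1 (1371 of all 16819 tested genes). There were 2 falls without control 2 (168 of all 16946 tested genes).

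Markers of some other cells of the eye also differed between the groups, and their part in the differences of the 10 genes was not tested. Of 12 endothelial genes 9 rose and 1 fell, where 6.36% of all tested genes rose and 5.63% fell. The 1 that fell was the receptor gene Kdr (-0.71), which retinal progenitors also express. With Kdr the list summed to 543 to 707 CPM in controls and 285 to 506 CPM in cKO libraries. Without Kdr the other 11 summed to 24.9 to 34.5 CPM in controls and to 45.1, 50.7 and 81.4 CPM in cKO 1, 2 and 3. Cdh5, the cadherin of endothelial junctions, read 1.81, 3.08 and 3.97 CPM in control libraries, against 4.21, 6.86 and 21.1 CPM in cKO libraries. The more abundant Cldn5 did not pass (-0.13, adjusted p = 0.616, edgeR). It read 16.4, 8.58 and 9.90 CPM in control libraries, against 13.0, 13.1 and 9.87 CPM in cKO libraries. Of 10 pericyte and smooth muscle genes 5 rose and 0 fell, with a sum of 43.4 to 52.7 CPM in controls and 69.2, 86.8 and 157 CPM in cKO 1, 2 and 3. Without Rgs5 the other 9 summed to 26.5 to 47.4 CPM and to 51.6, 61.6 and 61.7 CPM. Of the most abundant, Rgs5 and Pdgfrb rose by 2.24 and 0.84, and Notch3 did not pass (0.23, adjusted p = 0.250, edgeR). The highest library for the endothelial genes without Kdr and for the pericyte genes was cKO 3. The same library was highest for Nid1, Nid2, Lama4, Col4a2, Lamb1, Lamc1 and Hspg2, and for the retina marker Pax6. Col4a1 was highest in cKO 2, and Lama1 and Lamb2 in control 2.

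**Figure D4:**
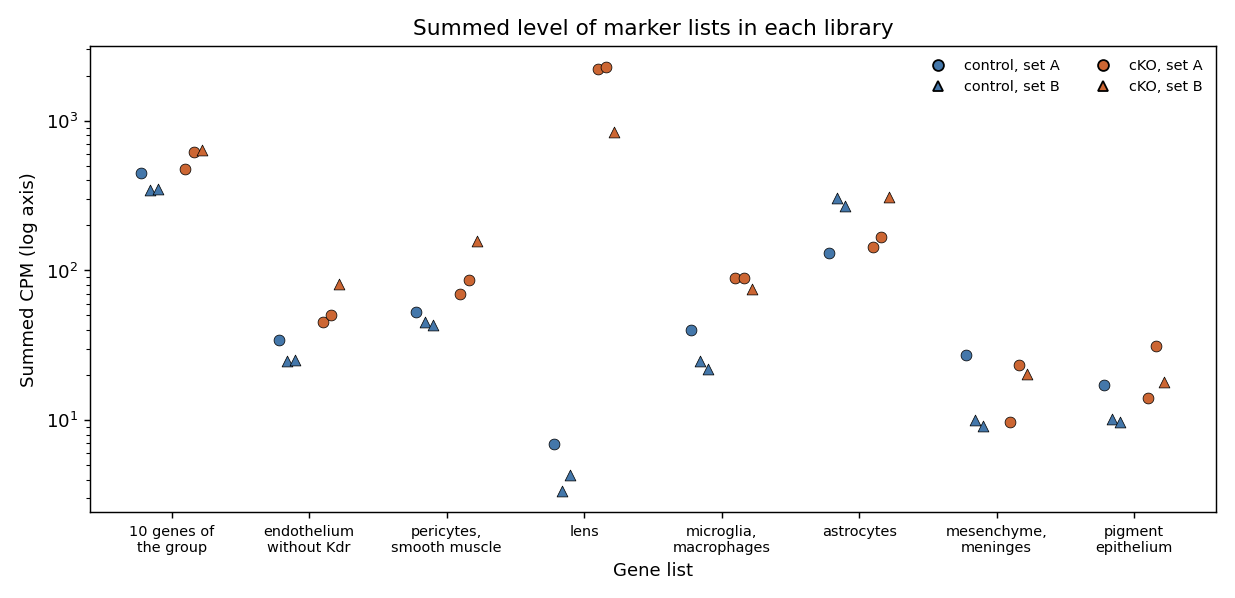
Summed CPM of the 10 genes and of 7 marker lists, endothelium without Kdr, in each library, on a log axis (blue controls, orange cKO, circles set A, triangles set B). Lens markers reach 843 to 2285 CPM in cKO against 3.35 to 6.97 CPM in controls, the endothelial list without Kdr and the pericyte list are highest in cKO 3, and astrocyte markers follow the library sets.

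Among these lists lens markers had the largest median log2 difference, 8.34. Of the 15 lens genes 11 were tested and 10 rose, where 6.36% of all tested genes rose. The lens list summed to 6.97, 3.35 and 4.27 CPM in the controls and to 2215, 2285 and 843 CPM in cKO 1, 2 and 3. Lens cells make the lens capsule, a thick basement membrane rich in collagen IV, nidogen and Lama1. The lowest cKO sum was in cKO 3, the only cKO library of set B, where Nid1 and Col4a2 were highest. The highest sum was in cKO 2, where Col4a1 was highest (211 CPM). Col4a5 (47.3, 60.4 and 27.5 CPM in cKO 1, 2 and 3) and Col4a6 (28.4, 34.1 and 18.6 CPM) were also highest in cKO 2. Both were lowest in cKO 3 among cKO libraries, and both were lower in set B (edgeR, adjusted p under 0.05). Of the 11 tested lens genes 7 were lower and 0 higher in set B (edgeR, adjusted p under 0.05), against 31.2% and 32.5% of all genes. Library and set cannot be told apart there, and a link between the lens sum and any of these collagen IV and nidogen genes was not tested. Of 10 microglia and macrophage genes 8 rose (sum of 22.1 to 40.1 CPM in controls and 75.0 to 88.9 CPM in cKO). Of 4 tested blood genes 2 rose, of 8 astrocyte genes 1 rose (Aldh1l1, named after its value was seen), and astrocyte sums were 130 to 307 and 144 to 312 CPM. Of 7 tested mesenchyme and meninges genes and 8 tested pigment epithelium genes 0 passed in edgeR, DESeq2 or limma-voom. At an unadjusted p under 0.05 each list had 1 higher and 0 lower, where all genes gave 13.3% and 13.0% (edgeR). Their sums were 9.14 to 27.2 CPM in controls and 9.65 to 23.3 CPM in cKO for mesenchyme, and 9.67 to 17.3 and 14.0 to 31.1 CPM for pigment epithelium. Over the 8 marker lists 0 genes were without reads in all 6 libraries.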

How the data were processed

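The authors deposited 1 file per library of raw counts, 1 whole number for each Ensembl gene, and 5 rows that name no gene. Those rows held 26.4 to 28.8% of all counts and stayed out of library sizes and tests. STAR, HTSeq, edgeR and GRCm38 are named in the submitters' processing notes without versions. Whether counting used strand is not stated there. Symbols and exon lengths came from GENCODE vM21 (GRCm38), which matched 37693 of 39179 identifiers; promoter windows came from RefSeq (GRCm38.p6).

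The fit used edgeR 4.0.16 (R 4.3.3) on 16691 genes kept by filterByExpr, TMM scaling, glmQLFit and glmQLFTest with library set (ambiguous share over 2.9% in set A) and genotype, with 3 residual degrees of freedom. Tests were 2-sided, with Benjamini-Hochberg adjustment over all tested genes and a threshold of 0.05. CPM were scaled by TMM, and RPKM are CPM per kilobase of merged exons, which overstates the length of any one transcript. Centred log2 CPM used a prior count of 2. The text names the 10 genes, up to 4 genes of smallest p in each related list, up to 3 most abundant markers per list and the 3 genes most like Col4a1, Lama1, Lamb2 and Nid2; others are marked as picked with their values in view. Other terms, scalings and filters, DESeq2 1.42.0, limma-voom (limma 3.58.1) and fits without each library were tried as alternatives. The scripts were tested on simulated counts. The 10 genes, the lists and the model were chosen with earlier results of these data known. Libraries were treated as separate animals, as the series text gives 3 mice per group. Within groups, chi-square per degree of freedom between libraries was 24.9 to 577, so none was deposited a second time.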

Additional observations from a re-analysis of the deposited data

How the results depend on the processing

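Over 15 alternatives with a test, the 10 genes gave 150 results, of which 122 stayed on the same side of the threshold, 11 lost the call and 17 gained it. The gains include those of Lama1, Lamb2, Nid2 and Hspg2 without a filter, a fit whose p-values are not on the scale of the main fit. A change of sign with a call in either fit occurred in 0. Without a call, the sign changed for Lamc1 (0.10 without control 2 and 0.04 without cKO 1) and for Hspg2 (-0.07 without cKO 3). The count of the 10 that rose was 4, against 0 with genotype alone, 2 with library set and sex, and 2 to 7 when leaving out single libraries (2 without cKO 3, 7 without cKO 1). The count that fell was 0, against 2 with RLE scaling, without a filter or in DESeq2, 1 with the label number as a block, and 0 to 2 when leaving out single libraries. Falls over all genes came to 1214 with RLE scaling and 1033 with the block, against 939. Genes of the related lists that rose came to 15, against 0 with genotype alone, 4 with sex, 23 without a filter and 2 to 23 when leaving out single libraries, and those that fell to 8, against 0, 2 with sex and 2 to 10. Over all genes 1062 rose and 939 fell, against 36 and 0 with genotype alone (831 and 461 at an unadjusted p under 0.05, edgeR), 173 and 63 with sex, 1592 lower without a filter, 1672 lower in DESeq2, and 176 to 1371 higher and 134 to 1336 lower when leaving out single libraries (552 higher and 168 lower without control 2, 545 and 452 without control 3, 637 higher without control 4, and 176 and 134 without cKO 3). Of the 10 genes 5 differed between sets, against 2 without scaling, and 0 had a genotype difference that changed between sets, against 1 without a filter (Hspg2). Values within 1 set moved by more than the residual SD for 10 of 20, with 5 genes in each set (Col4a1, Col4a2, Lama4, Nid2 and Hspg2).

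Label numbers 2 and 3 occur in both groups and correlate (r of deviations from group means 0.77 and 0.67), but same-numbered libraries also share a set, so the block repeats that term; the replicate block left 1 residual degree of freedom, called the same 4 rises and added a fall of Lamb2 (-0.32, adjusted p = 0.0379, edgeR). Low counts limit Lamb3 (4, 1 and 3 reads in controls) and Nid2, among other genes.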
